A study of Mus musculus with 12 samples.

Results

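Vwf, Thbd, Procr, Plat, F3, Tfpi, Selp, Sele and F8 are 9 genes by which vessel walls start, restrain or dissolve clots or catch leukocytes. They were taken as all probes that carry one of these symbols in the annotation of the array, which gave 19 of 45263 intact probes, and 9 of 19057 gene symbols. The 19 probes were read in whole lungs of Foxf1+/- pups, in which 1 allele of the transcription factor Foxf1 was disrupted by deletion of the forkhead domain, against lungs of wildtype littermates. All pups were at postnatal day 0.5 and on a 129/C57BL6/J mixed background, and the 6 Foxf1+/- and 6 wildtype lungs were each run on a separate bead array (Illumina MouseWG-6 v2.0). Every cell of a heterozygous pup carries the disrupted allele and the lungs were not sorted, so that fewer cells of a type and less RNA per cell cannot be told apart. The labels do not give sex or tie single pups to a litter.

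Resting endothelium keeps blood fluid. Thrombomodulin (Thbd) binds thrombin and turns it from a clotting enzyme into an activator of protein C, which the endothelial protein C receptor (Procr) presents, while tissue factor pathway inhibitor (Tfpi) blocks the start of the cascade at tissue factor (F3). Tissue plasminogen activator (Plat) makes plasmin, which dissolves fibrin. Von Willebrand factor (Vwf) tethers platelets, carries factor VIII (F8) in plasma and is stored in endothelial granules together with P-selectin (Selp). E-selectin (Sele) is made by endothelium after stimulation by cytokines, and both selectins catch leukocytes. In the lung, thrombomodulin is prominent in the alveolar capillaries, whereas von Willebrand factor is more prominent in larger vessels.

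Raw medians ranged between 57.3 and 89.3 over the 12 arrays, whose number sets the precision of each comparison. By their raw signal the arrays fell into 2 experiments of 6, A with Foxf1+/- replicates 1 to 4 and wildtype replicates 1 and 2, and B with Foxf1+/- replicates 5 and 6 and wildtype replicates 3 to 6. Experiment entered the fit as a block. Levels are quantile normalized log2 signals, fold changes are log2 differences of Foxf1+/- minus wildtype with SEs. Adjusted p-values come from limma with Benjamini-Hochberg adjustment over 33947 probes, with a call at 0.05. Exact permutation p-values are two-sided, were not adjusted over the 9 genes, and come from 924 free divisions of the arrays or from 225 that keep the experiments apart. They cannot go below 0.00216 and 0.00444. Nothing in the labels says more of the replicates than that they are biological, and p-values measure the spread between these lungs. Foxf1 itself averaged 10.83 ± 0.55 in Foxf1+/- and 11.56 ± 0.38 in wildtype lungs (SD, n = 6 each), with no overlap within either experiment, a fold change of -0.999 ± 0.13 and an adjusted p of 0.00224 (0.184 without the block). Where its probe lies relative to the deleted domain was not established, so this checks the genotype labels only in part. Of 16 pan-endothelial markers tested, Kdr, Erg and Myct1 lay near the floor, and the summed level of the 13 others was 15.97 to 16.32 in Foxf1+/- and 16.14 to 16.41 in wildtype lungs.

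Of the 9 genes, Vwf and Thbd were lower and Sele was higher in Foxf1+/- lungs. These 3 calls among 9 stand beside 3.61% of all 15653 genes tested, with 1.79% called lower and 1.82% called higher. By probe, 3 of 14 tested probes of the 9 genes were called, against 2.97% of all probes (1.22% lower and 1.74% higher). With no adjustment, 4 of the 9 genes had p under 0.05, against 18.9% of all genes. The genotypes stood apart in the same direction within both experiments in 2 of the 9, Thbd and Sele, against 6.07% of all genes. Over all 12 arrays they stood apart in 1, Sele, against 2.01%. Sele and F3 were tested only because their levels in Foxf1+/- lungs carried them over the filter on low signal described below. The median fold change was 0.06 over the 9 genes and -0.01 over all genes tested. Selp, Plat, Tfpi, Procr, F8 and F3 did not pass the test.

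**Figure D1:**
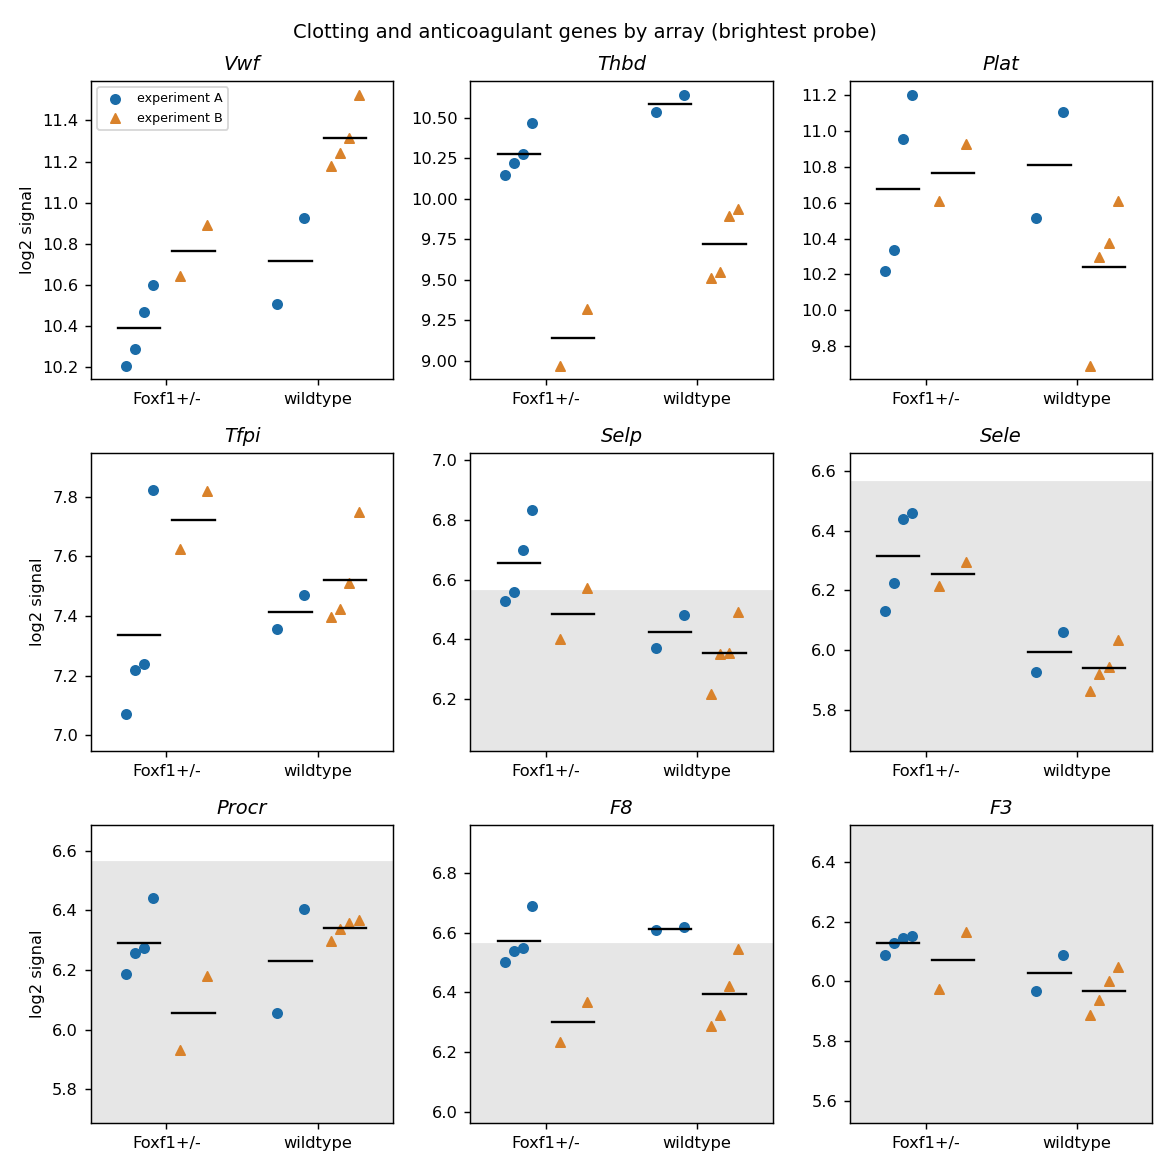
Log2 signal of the 9 genes in each array, with Foxf1+/- left of wildtype, experiment A as circles and experiment B as triangles, and bars at the mean of each genotype in each experiment. Points are spread sideways in order of level only for legibility, each panel has its own vertical range, and grey marks levels at or under 6.56, near the floor of the arrays. The Sele points of the genotypes do not overlap, and the Thbd points do not overlap within an experiment.

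Only 4 of the 9 genes, Vwf, Thbd, Plat and Tfpi, had a mean above a log2 signal of 6.56 in both genotypes. This limit lies 0.5 above the 5th percentile of the gene means and was chosen after the data were seen. Among the 10694 genes above it in both genotypes, 4.83% were called and 7.66% stood apart in the same direction within both experiments. The other 5 genes lay near the floor in at least 1 genotype, where the correction of background compresses fold changes and where the size of a fitted difference is uncertain. Of the 19 probes, 5 (1 of Vwf, 1 of Procr and 3 of Tfpi) fell under the filter on low signal and were not tested. They averaged between 5.80 and 5.95 in Foxf1+/- and between 5.81 and 5.97 in wildtype lungs.

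The signal of von Willebrand factor fell by 26.2% in Foxf1+/- lungs. In experiment A its level was 10.47, 10.60, 10.21 and 10.29 in Foxf1+/- lungs, against 10.93 and 10.51 in wildtype lungs. In experiment B it was 10.64 and 10.89 in Foxf1+/- lungs, against 11.32, 11.24, 11.18 and 11.53 in wildtype lungs. The genotypes overlapped in experiment A by 1 array of each, Foxf1+/- replicate 2 and wildtype replicate 2, and stood apart in experiment B. Over all arrays Vwf averaged 10.52 ± 0.25 in Foxf1+/- and 11.12 ± 0.36 in wildtype lungs (SD, n = 6 each). With the experiment as a block the fold change was -0.44 ± 0.11 (95% interval -0.67 to -0.21, adjusted p = 0.0452), with -0.33 within experiment A and -0.55 within experiment B. An exact permutation gave p = 0.0130 freely and p = 0.00889 within the experiments. The call lay close to the threshold, and was lost without Foxf1+/- replicate 3, 4, 5 or 6 or without wildtype replicate 1, 3, 4 or 6 (highest adjusted p 0.158, with Foxf1+/- replicate 5 left out), while the fold change stayed between -0.55 and -0.36. It was also lost under 7 of 14 other alternatives, over which the adjusted p ran between 0.0110 and 0.228.

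Platelets and their precursors hold von Willebrand factor and P-selectin too. Of 12 platelet and megakaryocyte markers tested, 0 were called (limma). At an unadjusted p under 0.05, which 18.9% of all genes had, 5 of these markers were lower and 0 higher. Their median fold change was -0.25, against -0.01 for all genes, with -0.10 within experiment A and -0.39 within experiment B. The platelet receptor subunits Gp9 (-0.43 ± 0.11, adjusted p = 0.0660) and Gp5 (-0.36 ± 0.11, adjusted p = 0.110) and the fibrinogen receptor subunit Itga2b (-0.41 ± 0.14, adjusted p = 0.142) had values below 0 and did not pass the test. Pf4 (-0.005 ± 0.13), Clec1b (0.02 ± 0.07) and Alox12 (0.01 ± 0.14), also above the floor, had values near 0. Gp6 and Itgb3 lay near the floor. The summed level of the 10 other markers was 11.33 to 11.71 in Foxf1+/- and 11.60 to 11.98 in wildtype lungs, with no overlap in experiment B and overlap in experiment A. The part of these markers in the lower Vwf was not tested.

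P-selectin, the granule partner of von Willebrand factor, did not pass the test. Its level was 6.70, 6.83, 6.56 and 6.53 in Foxf1+/- lungs, against 6.48 and 6.37 in wildtype lungs, in experiment A. In experiment B it was 6.57 and 6.40 in Foxf1+/- lungs, against 6.35, 6.22, 6.35 and 6.49 in wildtype lungs. Foxf1+/- lungs had the higher values throughout experiment A, and the genotypes overlapped in experiment B. The fold change was 0.18 ± 0.07 (95% interval 0.02 to 0.34, unadjusted p = 0.0269, adjusted p = 0.224), and the exact permutation p was 0.0130 freely and 0.0311 within the experiments. Both genotypes lay at the floor or just above it.

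E-selectin was higher in Foxf1+/- lungs at a level near the floor, and its wildtype mean lay under the filter on low signal. In experiment A its level was 6.13, 6.22, 6.44 and 6.46 in Foxf1+/- lungs, against 6.06 and 5.92 in wildtype lungs. In experiment B it was 6.21 and 6.30 in Foxf1+/- lungs, against 5.86, 5.94, 6.03 and 5.92 in wildtype lungs. The lowest Foxf1+/- array thus stood above the highest wildtype array. Sele averaged 6.29 ± 0.13 in Foxf1+/- and 5.96 ± 0.07 in wildtype lungs (SD, n = 6 each), and the fold change was 0.32 ± 0.07 (95% interval 0.17 to 0.47, adjusted p = 0.0290), with 0.32 within each experiment. The exact permutation p was 0.00216 freely and 0.00444 within the experiments, each the smallest its divisions allow. The call was lost without Foxf1+/- replicate 3, 5 or 6 or without wildtype replicate 1, 2, 3 or 4 (highest adjusted p 0.105, with Foxf1+/- replicate 6 left out). The fold change then stayed between 0.29 and 0.34, whereas over 13 other alternatives it ran between 0.18 and 0.62 (adjusted p 0.00915 to 0.217), lowest with the processed values and highest with an offset of 16.

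The starts of Sele and Selp lie close together on chromosome 1. The 250 bases before each start (RefSeq, GRCm38.p6, plus strand) are shown because these are the neighbouring selectin genes of which Sele was called, chr1:164047984-164048233 for Sele and chr1:164115014-164115263 for Selp. Capitals mark a match of GGGNNNNNCC, a short form of the site of the cytokine-driven factor NF-kB, and in Sele also of the TATA box TATAAA.
Sele: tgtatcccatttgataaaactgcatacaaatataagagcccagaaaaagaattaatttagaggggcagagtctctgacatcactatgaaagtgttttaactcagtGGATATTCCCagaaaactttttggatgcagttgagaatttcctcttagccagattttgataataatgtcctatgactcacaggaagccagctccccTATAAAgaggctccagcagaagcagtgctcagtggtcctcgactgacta
Selp: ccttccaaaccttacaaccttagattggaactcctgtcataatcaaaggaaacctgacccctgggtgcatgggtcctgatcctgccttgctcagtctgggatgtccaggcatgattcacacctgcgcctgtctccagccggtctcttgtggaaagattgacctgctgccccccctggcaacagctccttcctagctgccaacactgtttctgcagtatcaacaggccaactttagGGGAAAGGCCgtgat
Both strands were searched, and the marked motifs do not overlap. The GGGNNNNNCC match of Sele is on the minus strand at -145 to -136 and that of Selp on the plus strand at -15 to -6, counted from the start. The TATAAA of Sele lies at -49 to -44. Neither match is particular to the selectins. Of the 9 genes, 6 are in the RefSeq table (F3, F8, Procr, Sele, Selp and Tfpi), and all of these hold GGGNNNNNCC, as do 45.8% of 32851 promoters of this length. TATAAA is in Sele and Tfpi, and in 12.4% of promoters. A forkhead motif GTAAACA was found in 3.17% of promoters and in none of these 6 genes. A match is a description of these letters and not a binding site.

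Factor VIII, which endothelium of the lung produces and von Willebrand factor carries, lay near the floor. Its brightest probe read 6.23 to 6.69 (median 6.52) in Foxf1+/- lungs and 6.29 to 6.62 (median 6.48) in wildtype lungs, and the genotypes overlapped over most of their range. The fold change was -0.07 ± 0.06 (95% interval -0.20 to 0.06, adjusted p = 0.649). None of its 3 dimmer tested probes was called.

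The signal of thrombomodulin fell by 26.5% in Foxf1+/- lungs, but only when lungs were compared within an experiment. In experiment A its level was 10.47, 10.28, 10.22 and 10.15 in Foxf1+/- lungs, against 10.64 and 10.53 in wildtype lungs. In experiment B it was 9.32 and 8.97 in Foxf1+/- lungs, against 9.51, 9.89, 9.55 and 9.94 in wildtype lungs. Each Foxf1+/- lung stood below each wildtype lung of its own experiment, while experiment A as a whole stood above experiment B. With the experiment as a block its fold change was -0.44 ± 0.11 (95% interval -0.68 to -0.21, adjusted p = 0.0444), with -0.31 within experiment A and -0.58 within experiment B. Permuting within the experiments gave an exact p of 0.00444, the smallest possible. Over all arrays Thbd averaged 9.90 ± 0.61 in Foxf1+/- and 10.01 ± 0.48 in wildtype lungs (SD, n = 6 each), so that without the block the difference was -0.11 (adjusted p = 0.884, against 0.0159 to 0.893 over 14 alternatives, and exact permutation p = 0.727). As the labels do not name the experiments, the size of this difference in the signals normalized here rests on the split by raw signal. The authors adjusted the processed values between their 2 experiments, whose arrays are not named and may be those of A and B. In these values wildtype Thbd read 10.4 and 10.3 in experiment A, against 10.2 to 10.5 in experiment B. The processed values are therefore no check apart from the split. With no block they gave Thbd -0.37 (limma, adjusted p = 0.0159), in a setting chosen after seeing the data. That fit takes no account of the adjustment, and it called 2582 probes, against 1007 in the main fit. The call held without Foxf1+/- replicate 1 or wildtype replicate 5 and was lost when any of the 10 other arrays was left out (highest adjusted p 0.169, with Foxf1+/- replicate 6 left out), with fold changes between -0.50 and -0.35.

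The protein C receptor, the partner of thrombomodulin, lay near the floor. Procr read 5.93 to 6.44 (median 6.22) in Foxf1+/- lungs and 6.05 to 6.41 (median 6.35) in wildtype lungs. The fold change was -0.11 ± 0.09 (95% interval -0.31 to 0.08, adjusted p = 0.599), with 0.06 within experiment A and -0.28 within experiment B. In experiment B the 2 Foxf1+/- lungs at 6.18 and 5.93 stood below the 4 wildtype lungs, at 6.30 to 6.37. A test of the difference between the experiments gave an unadjusted p of 0.0456 and an adjusted p of 0.999 (limma interaction).

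Tfpi, the inhibitor of the tissue factor pathway, did not pass the test. Its level was 7.22, 7.82, 7.07 and 7.24 in Foxf1+/- lungs, against 7.36 and 7.47 in wildtype lungs, in experiment A. In experiment B it was 7.82 and 7.62 in Foxf1+/- lungs, against 7.75, 7.42, 7.40 and 7.51 in wildtype lungs. Foxf1+/- lungs held both the lowest and the highest values, and the spread was 0.33 in Foxf1+/- and 0.14 in wildtype lungs (SD, n = 6 each). The fold change was 0.06 ± 0.13 (95% interval -0.21 to 0.34, adjusted p = 0.869). F3, the tissue factor that Tfpi restrains, read 5.98 to 6.16 (median 6.14) in Foxf1+/- lungs and 5.89 to 6.09 (median 5.99) in wildtype lungs. Its fold change was 0.10 ± 0.05 (adjusted p = 0.369), near the floor in both genotypes.

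Plat, the activator of plasminogen, did not pass the test and had the widest interval of the 9 genes. In experiment A its level was 10.22, 10.34, 10.95 and 11.20 in Foxf1+/- lungs, against 10.51 and 11.11 in wildtype lungs. In experiment B it was 10.61 and 10.93 in Foxf1+/- lungs, against 10.37, 10.61, 10.30 and 9.69 in wildtype lungs. The genotypes overlapped in experiment A. In experiment B the lower Foxf1+/- lung stood above the highest wildtype lung by a margin that does not show in the second decimal. The fold change was 0.20 ± 0.23 (95% interval -0.30 to 0.69, adjusted p = 0.749), with -0.13 within experiment A and 0.53 within experiment B. With single arrays left out it ran between 0.06 (without Foxf1+/- replicate 6) and 0.39 (without wildtype replicate 2). The interval spans differences as large as those of Vwf and Thbd in size. The 2 other probes of Plat lay near the floor and were not called.

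**Figure D2:**
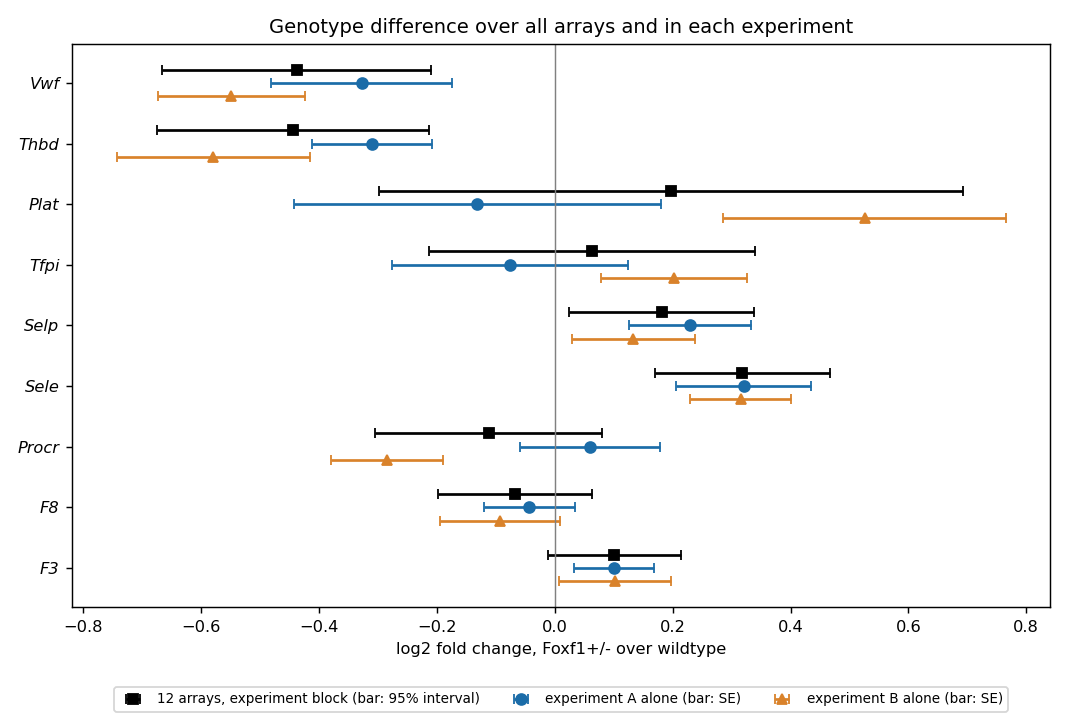
Log2 fold change of Foxf1+/- over wildtype for each of the 9 genes, over all 12 arrays with the experiment as a block (squares, 95% interval) and within experiment A (circles, SE) or experiment B (triangles, SE). Vwf, Thbd, Sele, Selp, F8 and F3 have the same sign in both experiments, whereas Plat, Tfpi and Procr have opposite signs, with no called difference between the experiments.

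The 9 genes did not vary together. With the experiment means taken out, and over 12 arrays, Vwf and Thbd had r = 0.76, and each ran against Sele (r = -0.76 and -0.79). With the genotype means taken out too, the r of Vwf and Thbd was 0.27. In that form the r with Sele was -0.29 for Vwf and -0.41 for Thbd. Plat ran against Vwf in both forms (r = -0.64, and -0.72 with the genotype means taken out). These are descriptions over 12 arrays that were normalized together. Most like Vwf over the arrays were 6330403K07Rik (r = 0.97), Klhl3 (r = 0.95) and Efs (r = 0.95). Thbd was most like Acbd4 (r = 0.97), Csf2 (r = 0.96) and Gm9918 (r = 0.96), and 62 genes had an r of at least 0.9 with it. Plat was most like Lrrn4cl (r = 0.93), Slc39a6 (r = 0.92) and Hspa1a (r = 0.92), and Tfpi most like Supt20 (r = 0.91), Fam114a2 (r = 0.91) and Ube4b (r = 0.89).

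Other genes of clotting were read in 4 lists. Of 51 tested genes among coagulation factors, anticoagulants, fibrinolysis, and thrombin receptors with restraint of platelets, 0 were called higher and 1 lower, with an unadjusted p under 0.05 in 7 higher and 4 lower genes and a median fold change of 0.02. Over all genes tested, 3.61% were called and 18.9% had an unadjusted p under 0.05. Only 27 of the 51 lay above the floor in both genotypes. The 1 call was coagulation factor V, whose gene F5 lay near the floor (-0.26 ± 0.06, adjusted p = 0.0484), and which kept its call without wildtype replicate 1 alone (highest adjusted p 0.175, with Foxf1+/- replicate 6 left out). Among 12 anticoagulants, Gas6, a ligand of the TAM receptors, came closest to a call (-0.48 ± 0.13, adjusted p = 0.0739), at 11.84 ± 0.29 in Foxf1+/- and 12.27 ± 0.19 in wildtype lungs (SD, n = 6 each). Of 10 genes of thrombin receptors and platelet restraint, the endothelial nitric oxide synthase Nos3 came closest (0.34 ± 0.09, adjusted p = 0.0637), and the thrombin receptor F2r had 0.17 ± 0.09 (adjusted p = 0.396). Of 12 genes of fibrinolysis, S100a10, a subunit of an annexin complex that binds plasminogen and Plat, had 0.33 ± 0.11 (adjusted p = 0.132). Urokinase, Plau, had 0.23 ± 0.08 (adjusted p = 0.159), and -0.16 without the experiment block.

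The fibrinogen chains Fga (1.22 ± 0.46, adjusted p = 0.195) and Fgg (0.70 ± 0.26, adjusted p = 0.180) and the kininogen Kng1 (0.91 ± 0.32, adjusted p = 0.166) had the highest values of the coagulation factors and did not pass the test. These proteins are made mainly in the liver. The remaining fibrinogen chain, Fgb, averaged 5.92 in Foxf1+/- and 5.91 in wildtype lungs and was too dim to be tested. Of 6 hepatocyte markers tested, Fga among them, 0 were called (limma, 2 higher at an unadjusted p under 0.05), with a median fold change of 0.68. The fetal liver protein Ahsg had 1.39 ± 0.47 (adjusted p = 0.147). The summed level of 5 hepatocyte markers above the floor was 9.71 to 12.79 in Foxf1+/- and 9.27 to 11.35 in wildtype lungs, which overlapped, and Alb was too dim to be tested. The part of these transcripts in the values of the fibrinogen chains was not tested.

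**Figure D3:**
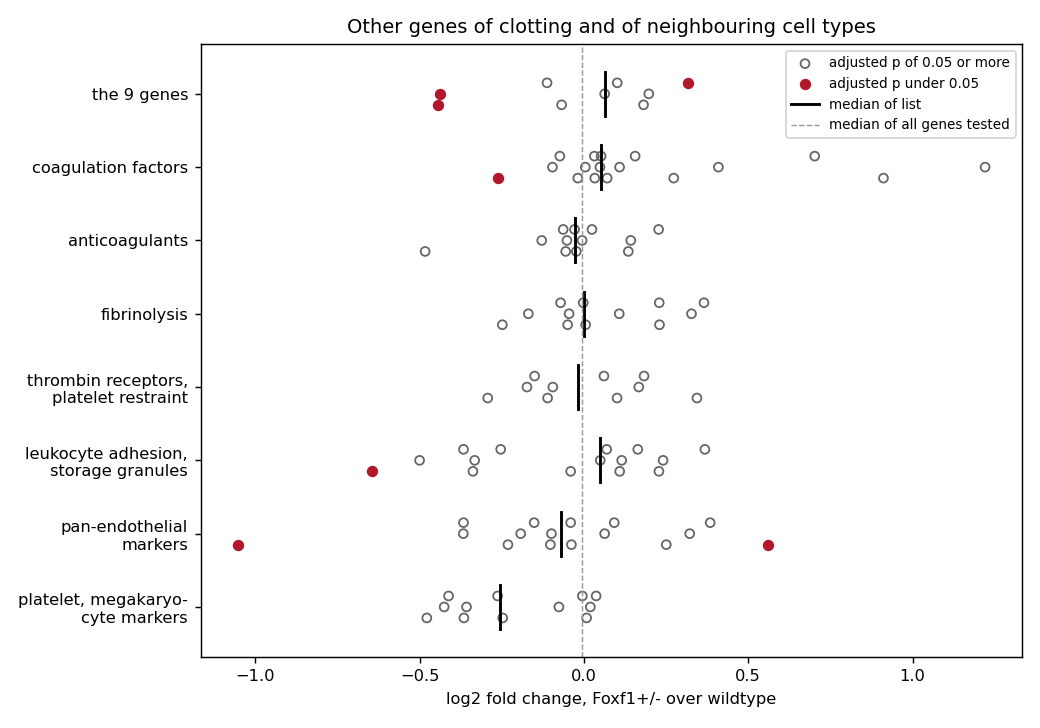
Log2 fold change of Foxf1+/- over wildtype of each tested gene (circles, filled where the adjusted p was under 0.05) in the 9 genes, 5 lists of related genes and 2 lists of cell type markers, with the median of each list (bar) and of all genes tested (dashed line). The platelet and megakaryocyte markers have a median of -0.25, and the other medians lie between -0.07 and 0.06.

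Among 15 tested genes of leukocyte adhesion and of the storage granule, 1 was called. An unadjusted p under 0.05 was found in 2 higher and 4 lower genes, and the median fold change was 0.05. The multimerin Mmrn1, a large carrier protein of platelets and endothelium, was lower at 8.86 ± 0.17 in Foxf1+/- and 9.55 ± 0.15 in wildtype lungs (SD, n = 6 each), with a fold change of -0.65 ± 0.09 (adjusted p = 0.00291). It was called whichever array was left out and under 14 other alternatives, with fold changes between -0.77 and -0.34 in these, the smallest with the mean of its probes. The median of the platelet markers given above lay on the same side, though some of these markers lay near 0. Their part in the lower Mmrn1 was not tested. Angpt2, which is stored with von Willebrand factor, had -0.50 ± 0.20 (adjusted p = 0.229), and Rab27a, which acts in release of the granule, had -0.34 ± 0.13 (adjusted p = 0.213). In the other direction, Cd34 had 0.37 ± 0.12 (adjusted p = 0.119) and Cd63 had 0.23 ± 0.09 (adjusted p = 0.229). None of Angpt2, Rab27a, Cd34 and Cd63 passed the test.

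The 2 further lists covered responses of endothelium. The lungs were not sorted, so these levels are not those of endothelium alone. Of 13 genes of the cytokine and NF-kB response, which induces Sele in endothelium, 0 were called (limma), with an unadjusted p under 0.05 in 1 higher and 2 lower genes and a median of -0.05. Il1b, a cytokine that induces E-selectin, had -0.49 ± 0.14 (adjusted p = 0.0793). Cxcl1, the 1 higher gene, had 0.29 ± 0.11 (adjusted p = 0.192). Of 9 genes of the vascular KLF and laminar flow response, whose factors Klf2 and Klf4 raise thrombomodulin in endothelium, 0 were called, with an unadjusted p under 0.05 in 3 higher and 1 lower gene and a median of 0.06. Klf2 had -0.26 ± 0.11 (adjusted p = 0.261) and Klf4 0.25 ± 0.11 (adjusted p = 0.274), and neither passed the test. The vasoconstrictor Edn1 had 0.91 ± 0.31 (adjusted p = 0.160).

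Markers of endothelium as a whole moved in both directions. Of 16 pan-endothelial markers, 1 was called higher and 1 lower, with 4 in each direction at an unadjusted p under 0.05 and a median of -0.07. Fold changes were below 0 in 10 of the 16 and above 0 in 6, and the summed level differed by -0.04 within experiment A and -0.19 within experiment B. The tight junction gene Cldn5 was lower (-1.05 ± 0.11, adjusted p = 3.79e-04) and the sialomucin Emcn was higher (0.56 ± 0.12, adjusted p = 0.0341). The call of Emcn was lost without Foxf1+/- replicate 5 or without wildtype replicate 1, 2, 3 or 6, with adjusted p-values up to 0.126. Above 0 lay the junction molecule Pecam1 (0.25 ± 0.07, adjusted p = 0.0847), Robo4 (0.32 ± 0.10, adjusted p = 0.111) and Eng (0.38 ± 0.14, adjusted p = 0.181). Below 0 lay the angiopoietin receptor Tek (-0.37 ± 0.14, adjusted p = 0.190), the adhesion molecule Icam2 (-0.37 ± 0.15, adjusted p = 0.250) and the secreted Egfl7 (-0.23 ± 0.09, adjusted p = 0.228). None of these markers passed the test. The part of the endothelial markers in the lower Vwf and Thbd was not tested.

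**Figure D4:**
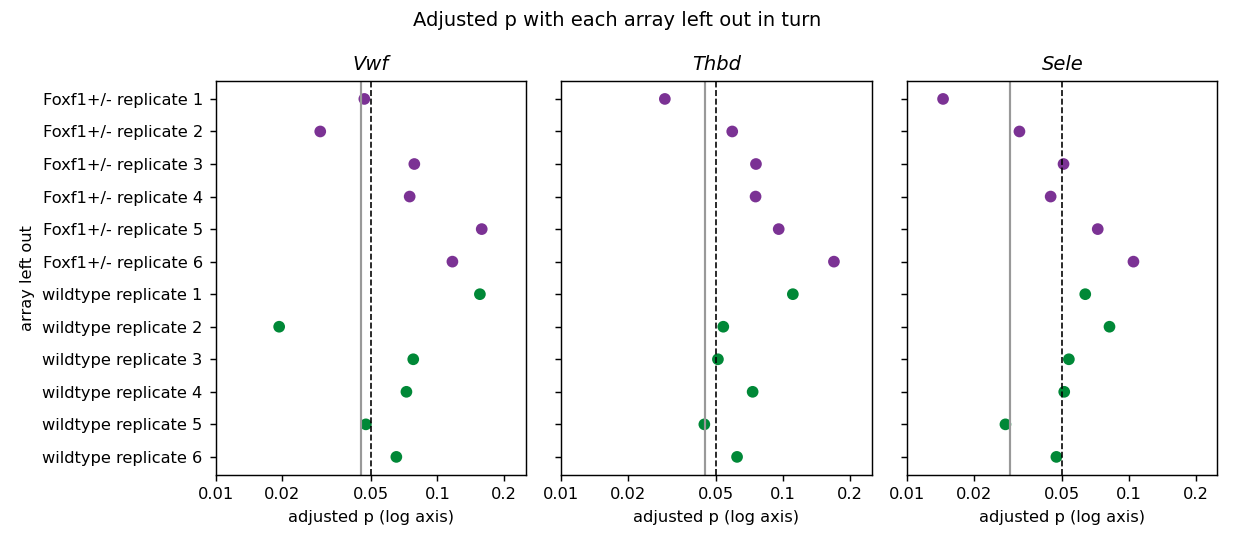
Adjusted p (log axis) of Vwf, Thbd and Sele with each of the 12 arrays left out in turn, Foxf1+/- arrays above wildtype arrays, with the value over all arrays (grey line) and the threshold of 0.05 (dashed line). Each gene has points on both sides of the threshold, and the highest values are 0.158 for Vwf, 0.169 for Thbd and 0.105 for Sele.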

How the data were processed

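Whole-lung RNA was hybridized to Illumina MouseWG-6 v2.0 arrays. The authors deposited raw probe signal intensities, neither background subtracted nor normalized, and processed values on a generalized log2 scale, made per the study's methods in lumi (variance stabilization, then robust splines) and adjusted by ComBat between 2 array experiments. Versions of these were not stated. The processed medians lay between 7.1805 and 7.1897.

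The raw intensities were background corrected by normexp with offset 50, log2 transformed and quantile normalized in limma 3.58.1 (R 4.3.3). 18 probes with shifted cells were left out of 45281, and probes whose mean passed the 25th percentile were tested. Of the intact probes 34874 had 1 symbol in the array annotation, 18 several and 10371 none, and 34841 matched a RefSeq symbol. The brightest probe stood for a gene. The table holds no detection p-values. The experiments, which the labels do not name, were inferred by 2-means from 3 percentiles of raw signal, the 5th, 50th and 95th (mean silhouette 0.739). Limma fitted genotype with the experiment as a block.

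Genes and lists were chosen with earlier results of these data known, and their counts are no independent evidence. Genes named were all 9, Foxf1, genes of each list with small adjusted p, others of a list whose level bears on the 9, and the 3 most alike in r. The named genes of a list do not follow strict rank by adjusted p. A summed level is the log2 of the summed signals of the markers above the floor. The fit was tested on simulated data. Alternatives were no background correction, scaling to a common median, the processed values, other filters, offsets and blocks, the Xist level as a covariate, array weights, averaging over the probes of a gene, the methods' t-test, and each array left out.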

Additional observations from a re-analysis of the deposited data

Results flagged for a closer look

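In wildtype lungs the Procr level of replicate 1 was 6.055, far from the other 5 arrays, which lay between 6.299 and 6.406. Its gap to the nearest was 0.696 of the range of the group, over Dixon's limit for 6 arrays. This was the 1 such array among 20 groups of 6 examined, and chance flags about 1 group in 20. The probe lies near the floor, and the fold change of Procr was -0.22 without this array, against -0.11 with it, and passed the test in neither case.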

How the results depend on the processing

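Limits are set by 6 arrays a genotype, by the inferred experiments and by signal near the floor for 5 of the 9 genes. Vwf, Thbd and Sele kept their direction under all alternatives run and were all called with no background correction, the processed values (also without the block and with the methods' t-test on them, both chosen after seeing the data), array weights and the mean of a gene's probes. Scaling to a common median gave Vwf -0.41 (adjusted p = 0.101), Thbd -0.40 (0.174) and Sele 0.30 (0.0844), none called, and 73.3% of called probes higher (497 higher, 181 lower) against 58.8% (592 higher, 415 lower) in the results above. With no filter Vwf was -0.44 (0.0545) and Thbd -0.44 (0.0535). With the Xist level as a covariate they were -0.44 (0.0578) and -0.44 (0.0589), and with an offset of 16 they were -0.45 (0.0549) and -0.47 (0.0527). Without the experiment block they were -0.60 (0.101) and -0.11 (0.884), and the methods' t-test gave -0.60 (0.183) and -0.11 (0.893). In each of these 5 settings 1 of the 9 genes, Sele, was called. Tfpi turned to -0.019, F8 to 0.014 and Plau to -0.16 without the block and with the methods' t-test. The cause of these changes was not tested. A filter at the median left Sele, Procr and F3 untested.

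The labels number replicates in both genotypes, and same-numbered lungs had r of -0.395 to -0.048, 0 of 6 pairs over 0.1. These r were taken with the experiment and genotype means removed, which by itself pushes r between the genotypes below 0 within an experiment. Some same-numbered lungs also lay in different experiments. The r therefore cannot decide whether the numbers pair the lungs. With the replicate block beside the experiment, Vwf was -0.38 (0.228), Thbd -0.41 (0.289) and Sele 0.23 (0.217), 0 of the 9 genes and 149 probes were called. Called probes were 1007 in all, 501 without the block, 240 with the methods' t-test, 2582 with processed values without the block and 1861 with that t-test on them.

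With each array left out, Vwf ran between -0.55 and -0.36, Thbd between -0.50 and -0.35, Sele between 0.29 and 0.34 and Tfpi between -0.0089 and 0.118, the last below 0 without Foxf1+/- replicate 2 or 5. Procr ran between -0.22 (without wildtype replicate 1) and -0.023 (without Foxf1+/- replicate 6), and Plat between 0.06 and 0.39, with neither called. Between 0 and 3 of the 9 genes and 405 (without Foxf1+/- replicate 6) to 1108 probes were called.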
